A study of Mus musculus with 7 samples.

Results

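The phagocyte NADPH oxidase was followed at the transcript level through 5 of its subunit genes, Cybb, Cyba, Ncf1, Ncf4 and Rac2. They were found by symbol among the 25033 genes listed in each library of T-cells, and all 5 passed the filter for low counts. The RNA of 7 mice was sequenced, each in a library of its own: 4 mice were ORP4L KI and 3 were wild-type littermates (WT). All mice were C57BL/6J and 15 months old. The study describes the sequenced ORP4L KI mice as moribund and the WT mice as controls of equal age, so that the genotype and the advanced disease cannot be told apart. The ORP4L KI mice carry the human ORP4L coding sequence in the Rosa26 locus, behind a CAG promoter and a loxP-flanked stop cassette that Cre removes. Cre is driven by the Lck promoter, which is active in the T-cell lineage. The labels call the WT mice only WT, and whether they carry the floxed allele or Cre is not given in the sources used here. The methods isolate CD4+ T-cells from blood or spleen with a naive CD4+ T-cell kit and then culture them with IL-2 and PHA, and the labels say primary T-cells without giving the tissue or the time in culture. The sexes are not labelled, and the methods use both.

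The oxidase moves electrons from NADPH across a membrane to oxygen and so makes superoxide, the first step of the oxidative burst with which neutrophils and macrophages kill microbes. Its membrane core, flavocytochrome b, pairs the catalytic subunit NOX2 (Cybb) with its stabilising partner p22phox (Cyba). In resting cells the organiser p47phox (Ncf1) and p40phox (Ncf4) stay in the cytosol as parts of a complex, and the small GTPase Rac2 is held apart by a GDP dissociation inhibitor. On stimulation all of them dock at the core. Loss of NOX2, p22phox, p47phox or p40phox causes chronic granulomatous disease. The genes are transcribed most in granulocytes, monocytes and macrophages, B cells express the complex at lower levels, and Rac2 is used by blood cells in general, T-cells included.

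On the mouse build GRCm38, which the labels name as mm10, RefSeq places the gene Cybb (counted as NM_007807) at chrX:9435252-9487766, Cyba (NM_007806) at chr8:122424771-122432940 and Ncf1 (NM_010876) at chr5:134220053-134229628. Ncf4 (NM_008677) lies at chr15:78244164-78262582 and Rac2 (NM_009008) on the same chromosome at chr15:78559169-78572783. The span of Cybb covers more than 1 transcript model, and the start site of its promoter entry lies inside that span, not at its upstream end. The promoters of 3 members were found in the RefSeq promoter table of GRCm38.p6, which spans 250 bases before to 50 bases after a start site. They were searched on both strands for GAGGAA, a form of the site of the myeloid factor PU.1 (the product of Spi1), and for CCAAT. Those of Cybb (chrX:9469275-9469574, minus strand) and Ncf1 (chr5:134229576-134229875, minus strand) are shown 5′ to 3′ because Cybb holds both motifs, in capitals, while Ncf1, the member with the highest fold change, holds neither:
Cybb: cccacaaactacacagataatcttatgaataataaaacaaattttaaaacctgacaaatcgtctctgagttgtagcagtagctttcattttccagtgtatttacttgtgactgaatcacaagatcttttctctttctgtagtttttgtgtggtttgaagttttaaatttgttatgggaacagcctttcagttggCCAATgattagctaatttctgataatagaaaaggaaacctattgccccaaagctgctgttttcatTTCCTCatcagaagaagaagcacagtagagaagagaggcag
Ncf1: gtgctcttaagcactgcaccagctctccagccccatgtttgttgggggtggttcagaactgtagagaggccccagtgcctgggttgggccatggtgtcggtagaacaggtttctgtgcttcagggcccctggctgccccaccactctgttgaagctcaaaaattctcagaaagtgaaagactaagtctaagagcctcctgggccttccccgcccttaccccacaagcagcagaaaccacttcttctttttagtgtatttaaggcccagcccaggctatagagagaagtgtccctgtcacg
In Cybb the CCAAT begins 56 bases before the start site, and GAGGAA, read as TTCCTC on the strand shown, begins at base 10 after it. The Cyba window also holds neither motif. GAGGAA occurs in 28.3% and CCAAT in 37.4% of the 32851 promoters of the table, so a match in 1 window of this length is a description of the letters and not of binding. Ncf4 and Rac2 had no entry in the table.

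Total counts ranged from 12918187 to 15912921 in WT and from 16757959 to 19665679 in ORP4L KI libraries, so every ORP4L KI library was sequenced deeper than every WT library. For Osbp2, the mouse gene of ORP4L, the WT libraries held 0, 0 and 1 counts and the ORP4L KI libraries 188, 742, 155 and 443, which separates the genotypes as labelled. Whether these reads came from the human insert was not tested. None of the 8 T-cell marker genes was past the thresholds given below. Cd4, the defining coreceptor, had 93.4 CPM (library-scaled counts, the share of a library's reads on the usual CPM scale after TMM) in ORP4L KI replicate 1 and between 253.6 and 414.5 CPM in the other 6 libraries. A granulocyte gene was the highest in that library (S100a9) and in ORP4L KI replicate 4 (Ngp), where Eef1a1 led the other 5. In ORP4L KI replicate 1 the 10 highest genes took 14.3% of its counts against 5.23% to 7.96% elsewhere. The log2 differences of the members and of the pathway genes that rose or fell are therefore also given without ORP4L KI replicate 1.

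No difference of the 5 subunit genes between ORP4L KI and WT T-cells passed the thresholds of edgeR's quasi-likelihood test. Their means were all higher in ORP4L KI, by 2.41-fold for Ncf1, 2.13-fold for Cybb, 2.10-fold for Ncf4, 1.70-fold for Cyba and 1.27-fold for Rac2, but the spread between the 4 ORP4L KI mice was of the same order as these differences. None of the 5 had an unadjusted p under 0.01 with a log2 fold change (log2FC) above 1 in size, which 2.38% of the 13462 genes tested passed as higher in ORP4L KI, 2.3% as lower and 4.68% in either direction. At an adjusted p under 0.05 there were 0 subunit genes, against 0.0223% of all genes in either direction and 0.00743% as higher. At an unadjusted p under 0.05 there were 3, Cybb, Ncf1 and Ncf4, where 13.7% of all genes were. By DESeq2's Wald test 1 member, Ncf1, passed the first thresholds and 0 the adjusted one. The log2FC was above 0 for all 5 members and for 51.5% of all genes, with a median of 1.07 over the members and 0.013 over all genes. It was above 1 for 3 members and for 5.46% of all genes.

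**Figure D1:**
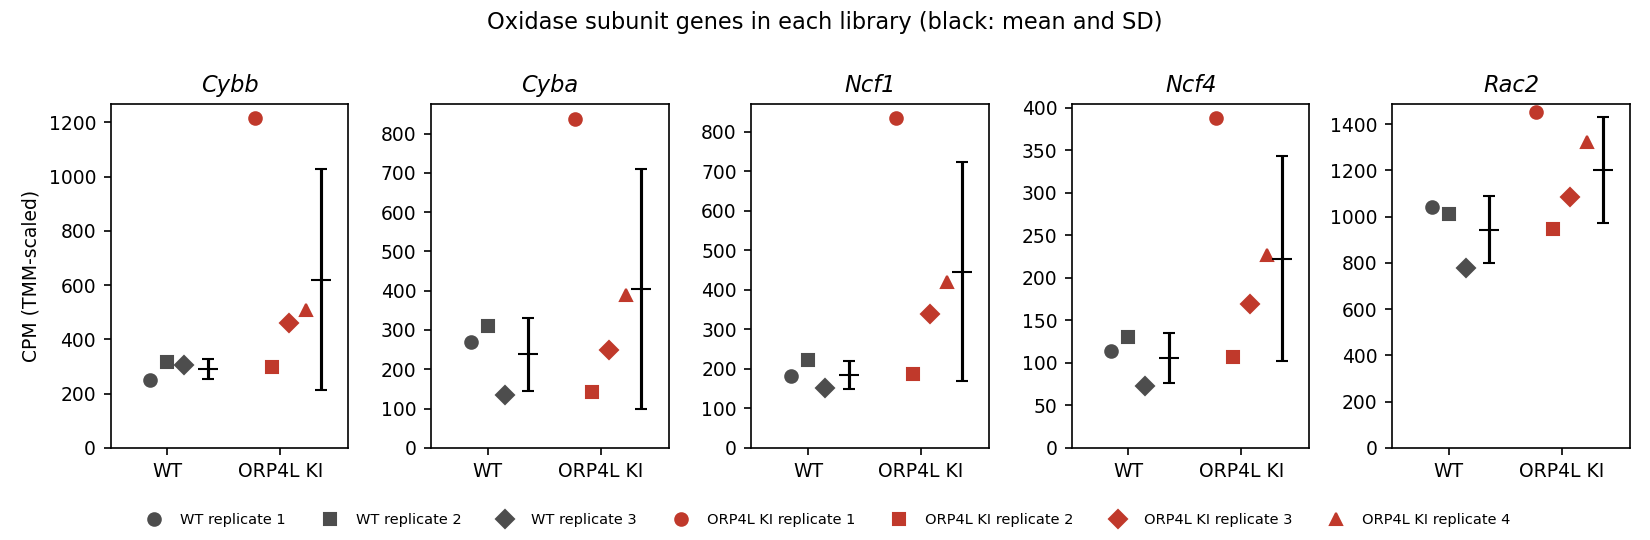
Expression of the 5 oxidase subunit genes in CPM (y axis, TMM-scaled, starting at 0) in 3 WT and 4 ORP4L KI libraries, 1 point a library, with the mean and SD of each group in black. ORP4L KI replicate 1 is the highest library in all 5 genes, and ORP4L KI replicate 2 lies within the range of WT in all 5.

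Cybb encodes NOX2, the subunit that binds FAD, heme and NADPH and carries the electrons. It had 248.5, 318.1 and 304.9 CPM in WT replicates 1, 2 and 3 and 1216, 297.4, 459.0 and 506.4 CPM in ORP4L KI replicates 1, 2, 3 and 4. The ORP4L KI replicates 1, 3 and 4 were above every WT library, and replicate 2 was within the WT range. The means were 290.5 ± 37.0 CPM (SD, n = 3 mice) in WT and 619.7 ± 407.5 CPM (SD, n = 4) in ORP4L KI. The log2FC was 1.09 (standard error, SE, 0.44, edgeR-adjusted p = 0.304), and an exact permutation test over the 35 splits gave a two-sided p of 0.114, where the smallest possible is 0.0286.

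Cyba encodes p22phox, which holds NOX2 in the membrane and offers the docking site of p47phox. It had 270.3, 309.8 and 134.1 CPM in WT and 837.4, 142.8, 249.8 and 387.9 CPM in ORP4L KI libraries, in the order of the replicates. Only ORP4L KI replicates 1 and 4 exceeded WT here, and the WT libraries themselves spread widely, with replicate 3 the lowest of all 7. The log2FC was 0.76 (SE 0.55, edgeR-adjusted p = 0.627), and the exact permutation test gave p = 0.486.

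Ncf1 encodes p47phox, whose phosphorylation opens it and carries the cytosolic complex to the membrane. WT replicates 1 to 3 had 181.1, 221.0 and 151.0 CPM, and ORP4L KI replicates 1 to 4 had 834.6, 187.1, 338.6 and 420.3 CPM. Again ORP4L KI replicates 1, 3 and 4 lay above WT and replicate 2 within it. The log2FC of 1.27 (SE 0.45, edgeR-adjusted p = 0.233) was the highest of the 5, with p = 0.0857 in the exact permutation test.

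Ncf4 encodes p40phox, which binds phosphatidylinositol 3-phosphate on the phagosome. Its values were 113.9, 131.0 and 73.3 CPM in WT and 388.6, 106.6, 168.9 and 226.9 CPM in ORP4L KI libraries, so that the same 3 ORP4L KI libraries were above WT. The log2FC was 1.07 (SE 0.41, edgeR-adjusted p = 0.289), with p = 0.143 in the exact permutation test.

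Rac2, the GTPase, had 1042, 1010 and 776.8 CPM in WT and 1452, 947.8, 1084 and 1324 CPM in ORP4L KI libraries. It had the smallest spread in ORP4L KI of the 5 genes, with a highest value 1.53 times the lowest, where the other 4 genes ranged from 3.65 times for Ncf4 to 5.86 times for Cyba. The log2FC was 0.35 (SE 0.24, edgeR-adjusted p = 0.602), with p = 0.20 in the exact permutation test. For 4 of the 5 members, all but Cyba, 3 of the 4 ORP4L KI libraries were above every WT library, and for 0 members were all 4. Of all genes tested, 16.8% had at least 3 libraries above WT and 6.43% had all 4, while 7.38% had all 4 below WT, which was the case for 0 members.

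Among the fits with 1 library left out, only that without ORP4L KI replicate 2 changed the count of 0 members past the thresholds. Without ORP4L KI replicate 1 the log2FCs were 0.53 for Cybb, 0.13 for Cyba, 0.77 for Ncf1, 0.66 for Ncf4 and 0.25 for Rac2, and none was past the thresholds. Without ORP4L KI replicate 2, in contrast, they were 1.31, 1.04, 1.52, 1.29 and 0.44, and Cybb, Ncf1 and Ncf4 passed the unadjusted thresholds, with adjusted p of 0.112, 0.0565 and 0.089 by edgeR's quasi-likelihood test. Leaving out ORP4L KI replicate 3 or 4 or any WT library gave 0 members past the thresholds. Cyba also moved without WT replicate 3, to 0.48.

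**Figure D2:**
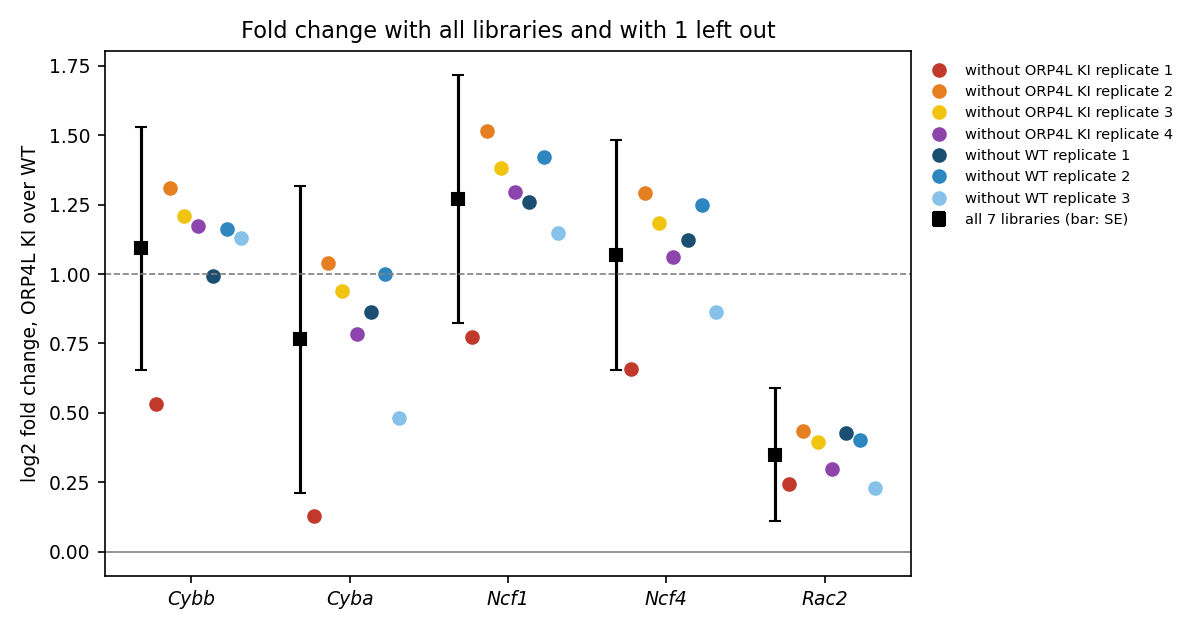
Log2FC of ORP4L KI over WT (y axis) for each subunit gene, with all 7 libraries (black square, bar: SE) and with 1 library left out (coloured points); the dashed line marks a log2FC of 1. Without ORP4L KI replicate 1 the value falls for every gene, to 0.13 for Cyba, and without ORP4L KI replicate 2 it is the highest of each gene's points.

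All 5 members had the same order of the ORP4L KI libraries, replicate 1 highest, then 4, then 3, then 2. This order was seen in 16.7% of the 13462 genes tested. It was also the order of 15 of 16 granulocyte marker genes and of 0 of 8 T-cell, 0 of 8 B-cell and 0 of 8 dendritic cell marker genes. In the tested genes of the pathway lists described below, it was the order of 10 of 21 upstream genes and 4 of 7 transcription factors. The same order was seen in 2 of 3 NADPH supply genes, 11 of 22 oxidant handling genes and 2 of 9 partners and relatives of the subunits. Granulocyte markers such as Mpo, S100a8 and Ly6g were past the thresholds in ORP4L KI for 14 of 16 genes, with a median log2FC of 4.13. The remaining 2 were Cxcr2 (0.40) and Csf3r (-0.99). Mpo, a granule peroxidase, had a log2FC of 4.29, which was 3.44 without ORP4L KI replicate 1 and 5.72 without WT replicate 1. The summed level of the 16 genes was between 2483 and 5697 CPM in WT and 146849, 10563, 31314 and 53906 CPM in ORP4L KI replicates 1, 2, 3 and 4, and no marker of the list was at 0 in any library. In ORP4L KI replicate 2 the granulocyte sum was thus above every WT library, while all 5 oxidase genes were within the WT range. The part of granulocyte RNA in the values of the subunit genes was not tested. In bulk libraries, more cells of a type and more RNA per cell cannot be told apart.

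Between ORP4L KI replicates 1 and 2 the summed level of the 5 members differed 2.81-fold and that of the granulocyte markers 13.9-fold. Rac2, the most abundant in CPM, differed 1.53-fold between these libraries and the other 4 members 3.65- to 5.86-fold. Of the markers, Csf3r (2.17-fold), Cxcr2 (4.42-fold) and Mmp8 (5.52-fold) differed less than Cyba, and the other 13 differed 6.96- to 27.7-fold. The members together came to 34.9%, 34.9% and 58.0% of the summed granulocyte level in WT replicates 1, 2 and 3, and to 3.22%, 15.9%, 7.34% and 5.32% in ORP4L KI replicates 1, 2, 3 and 4. These shares do not overlap between the groups, but neither does the granulocyte sum they are divided by. That sum was at most 5697 CPM in WT and at least 10563 CPM in ORP4L KI. The summed level of the members did overlap, at 1440 to 1990 CPM in WT and 1682 to 4729 CPM in ORP4L KI. The separation of the shares is therefore not a result about the oxidase genes, and no test was run on it.

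**Figure D3:**
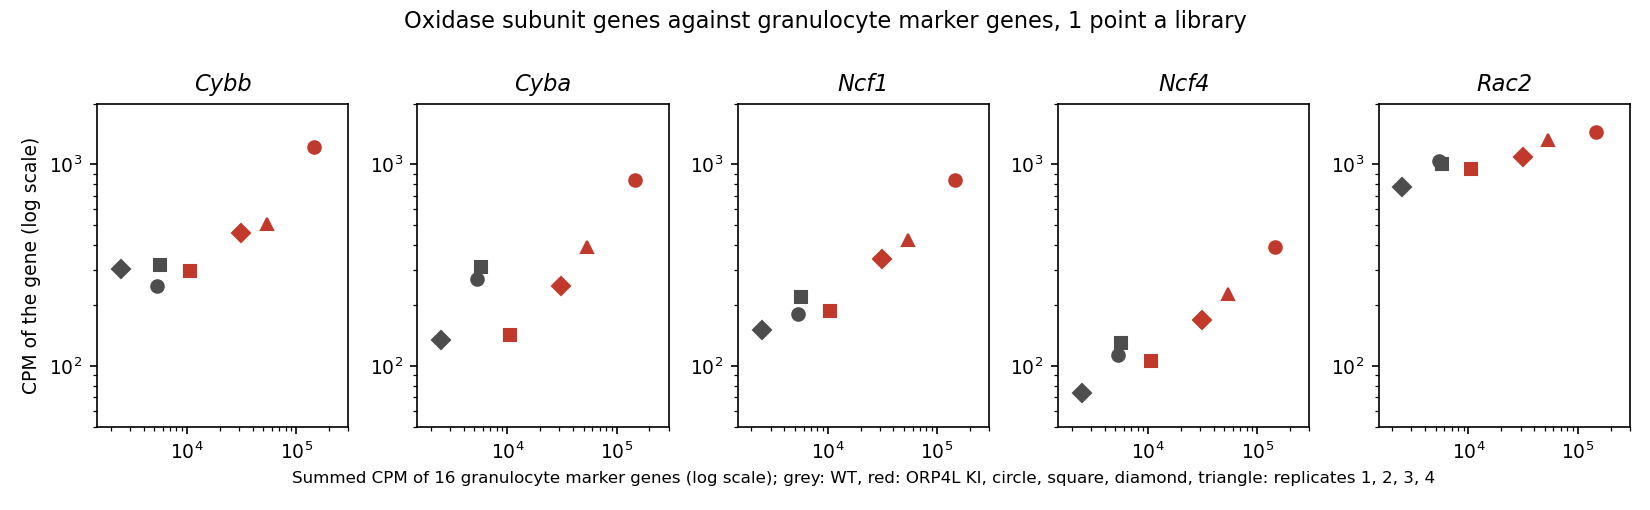
CPM of each subunit gene (y axis, log scale) against the summed CPM of 16 granulocyte marker genes (x axis, log scale), 1 point a library, WT in grey and ORP4L KI in red. The granulocyte sum spans from 2483 to 146849 CPM, and ORP4L KI replicates 3, 4 and 1, the 3 highest in that sum, come in the same order in every gene.

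Among 12 monocyte and macrophage markers, 1 was past the thresholds as higher (Ly6c2, which neutrophil precursors also express) and 2 as lower, Csf1r among them, and the median log2FC was -0.70, while 5 of the 12 had the order of the ORP4L KI libraries described above. Csf1r, the receptor on which macrophages depend, had 228.3, 345.2 and 226.0 CPM in WT and 138.5, 98.3, 116.8 and 120.2 CPM in ORP4L KI libraries, a log2FC of -1.17 (SE 0.22, edgeR-adjusted p = 0.066) that was -0.94, and not past the thresholds, without WT replicate 2. Cd68 had a log2FC of -0.86 and was not past the thresholds, although every ORP4L KI library was below WT. The summed level of the list was 2930 to 4776 CPM in WT and 2138 to 7207 CPM in ORP4L KI. Most of this sum was Lyz2 in every library, with 2030 to 3446 CPM in WT and 1388 to 5419 CPM in ORP4L KI. Lyz2 and Ly6c2 had log2FCs of 0.27 and 1.27. The other 10 markers were below 0, and 4 of them had every ORP4L KI library below WT. None of 8 B-cell markers was past the thresholds, with a median of -0.33 and sums of 290.3 to 508.1 CPM in WT and 145.5 to 505.8 CPM in ORP4L KI. Cd79a had a log2FC of -0.08, with a sign that changed when WT replicate 1, WT replicate 2 or ORP4L KI replicate 2 was left out. The 8 T-cell markers had a median of 0.11, with Cd3e at 0.20 (-0.040 without ORP4L KI replicate 2), and a summed level that was lowest in ORP4L KI replicate 1, at 1031 CPM against 1734 to 2839 CPM elsewhere. Of the dendritic cell markers 7 of 8 were past the thresholds as lower, of the NK cell markers 3 of 7, and of the erythroid markers 0 of 8. Every ORP4L KI library was above WT for 2 NK cell markers and below WT for 3. For the erythroid markers it was above WT for 0 and below WT for 4. Of all genes tested, 6.43% were above WT in this way and 7.38% below. The part of these cells in the subunit genes was not tested.

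Cybb is X-linked, so its values were also read by the Xist level, the RNA of the inactive X chromosome. WT replicate 1 and ORP4L KI replicates 1 and 2 had between 372.7 and 650.6 CPM of Xist and at most 3.35 CPM of the Y-linked Ddx3y, and the other 4 libraries had at most 22.3 CPM of Xist and at least 120.8 CPM of Ddx3y. Among the 3 libraries with high Xist, Cybb had 248.5 CPM in WT and 1216 and 297.4 CPM in ORP4L KI. Among the 4 others it had 318.1 and 304.9 CPM in WT and 459.0 and 506.4 CPM in ORP4L KI. The ORP4L KI libraries were therefore above WT within each class, with 1 WT library in the first. A fit with the class as a covariate was chosen on seeing these values, and there the log2FC of Cybb was 1.0 (edgeR-adjusted p = 0.486), that of the autosomal Ncf1 was 1.21, and 0 members were called.

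Levels of different genes were compared per length, on the RPKM values of the authors. Cyba and Rac2 were the most abundant subunits and Cybb the least in both groups. In WT the RPKM was 369.9 ± 131.6 (SD, n = 3) for Cyba, 328.3 ± 44.9 for Rac2, 129.7 ± 18.2 for Ncf1, 76.7 ± 18.6 for Ncf4 and 64.7 ± 7.30 for Cybb. In ORP4L KI it was 540.4 ± 351.2 (SD, n = 4), 373.7 ± 31.0, 271.1 ± 139.1, 140.4 ± 60.8 and 119.0 ± 64.5 in the same order. Neighbours in this order overlapped: Cyba was above Rac2 in 5 of 7 libraries, Rac2 above Ncf1 in 6 of 7 and Ncf4 above Cybb in 6 of 7, while Ncf1 was above Ncf4 in all 7. The length is that of the longest transcript, so a gene with shorter main isoforms would read low on this scale.

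Ratios of counts within a library do not depend on scaling, and 4 were examined. The 2 membrane subunits did not keep a fixed ratio: Cybb to Cyba was 0.92, 1.03 and 2.27 in WT and 1.45, 2.08, 1.84 and 1.31 in ORP4L KI libraries. The cytosolic partners Ncf1 and Ncf4 kept a narrower one, between 1.59 and 2.06 in WT and between 1.76 and 2.15 in ORP4L KI. Rac2 to Rac1, the blood cell GTPase against its ubiquitous paralog, was 3.16, 2.86 and 2.89 in WT and 3.42, 2.98, 3.43 and 3.97 in ORP4L KI. Cybb to Rac2 was 0.238, 0.315 and 0.393 in WT and 0.837, 0.314, 0.424 and 0.382 in ORP4L KI. For none of the 4 ratios was a difference beyond the spread detected (exact permutation test, two-sided p of 0.40, 0.343, 0.0857 and 0.286, adjusted over the 4 ratios 0.40, 0.40, 0.343 and 0.40). The smallest p this test can give is 0.0286. After the adjustment, 1 ratio that changed alone could therefore not have come under 0.05. Without ORP4L KI replicate 1 the log2 differences of these ratios, ORP4L KI minus WT, were 0.41, 0.08, 0.21 and 0.26, against 0.35, 0.13, 0.21 and 0.56 with it. How reads shared by Rac1 and Rac2 were counted is not stated, so this ratio carries that uncertainty.

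The other components of the complex and the relatives of its subunits gave 0 called genes among the 9 of 15 that passed the filter, with a median log2FC of -0.28. Rac1 had 268.6 to 353.5 CPM in WT and 316.2 to 424.2 CPM in ORP4L KI, a log2FC of 0.13 that was -0.021 when libraries were scaled by total counts. Cybc1, a chaperone without which the NOX2 and p22phox dimer is not stable, had 50.2 ± 7.78 CPM in WT and 41.2 ± 7.01 CPM in ORP4L KI (log2FC -0.28, SE 0.20). Hvcn1, the proton channel that balances the charge the oxidase moves, had 82.9 ± 12.9 and 110.4 ± 23.2 CPM (log2FC 0.41, SE 0.23). The catalytic relatives Nox3, Nox4, Duox1 and Duox2 were at 0 counts in all 7 libraries, which bounds them at 3 counts of a library, and Nox1 had between 4 and 63 counts. Of the NOX and DUOX genes examined, Cybb was the only one above 4 CPM in any of these libraries.

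Of 21 genes that act upstream of the oxidase, receptors, kinases, exchange factors of Rac and GDP dissociation inhibitors, 1 rose and 0 fell. The one was Fpr2, a formyl peptide receptor, with 19.3, 32.9 and 15.9 CPM in WT and 346.1, 30.6, 80.0 and 116.5 CPM in ORP4L KI libraries (log2FC 2.66, SE 0.73, edgeR-adjusted p = 0.139). The groups overlapped in ORP4L KI replicate 2, the log2FC was 1.74 without ORP4L KI replicate 1, and the call was lost without WT replicate 1 or 3, with the replicate block and with the Xist class as a covariate. The list had a median log2FC of 0.11 and a range from -0.87 to 2.66. Of the 7 transcription factors that act on these promoters in myeloid cells, 1 rose and 1 fell. Cebpe, a factor of late granulocyte maturation, had 6.52, 2.77 and 1.05 CPM in WT and 191.9, 17.03, 35.95 and 56.5 CPM in ORP4L KI libraries. It rose in ORP4L KI, with no overlap of the groups and a log2FC of 4.44 (SE 0.94, edgeR-adjusted p = 0.0766), which was 3.39 without ORP4L KI replicate 1 and 5.29 without WT replicate 1. Irf8, which directs monocyte and dendritic cell fate and is also used by B cells, fell, with a mean of 351.7 ± 90.1 CPM in WT and 143.1 ± 38.9 CPM in ORP4L KI (log2FC -1.30, SE 0.27, edgeR-adjusted p = 0.0708), with every ORP4L KI library below WT, and the log2FC was -1.18 without ORP4L KI replicate 1. Spi1, which encodes PU.1, had 266.4, 456.4 and 175.0 CPM in WT and 447.3, 118.3, 227.4 and 328.1 CPM in ORP4L KI libraries, and a log2FC of -0.10 whose sign changed when WT replicate 2 or ORP4L KI replicate 2 was left out.

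The oxidase draws its NADPH from the pentose phosphate pathway and a few other dehydrogenases. Of 4 such genes, Me1 was under the filter, and of the 3 tested G6pdx, the first enzyme of that pathway, rose. G6pdx had 95.8, 101.1 and 77.5 CPM in WT and 473.9, 131.1, 211.9 and 249.9 CPM in ORP4L KI libraries, so every ORP4L KI library was above WT, in the order of the oxidase subunits. Its log2FC was 1.54 (SE 0.40, edgeR-adjusted p = 0.117), it was 1.11 without ORP4L KI replicate 1, and it was not past the thresholds without WT replicate 1 or WT replicate 3. Pgd, the next NADPH-making enzyme of the pathway, had a log2FC of 1.35 (SE 0.48), which was 0.76 without ORP4L KI replicate 1. Idh1 had a log2FC of 0.76 (SE 0.56), with 14.2, 20.2 and 16.2 CPM in WT and 68.8, 17.7, 13.4 and 14.8 CPM in ORP4L KI libraries. Only ORP4L KI replicate 1 was above WT for Idh1. Idh1 falls outside the rule for named genes and was chosen after its values were seen. Over the 62 tested genes of the pathway lists, subunits aside, 5 were past the thresholds, against the 4.68% of all genes given above.

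**Figure D4:**
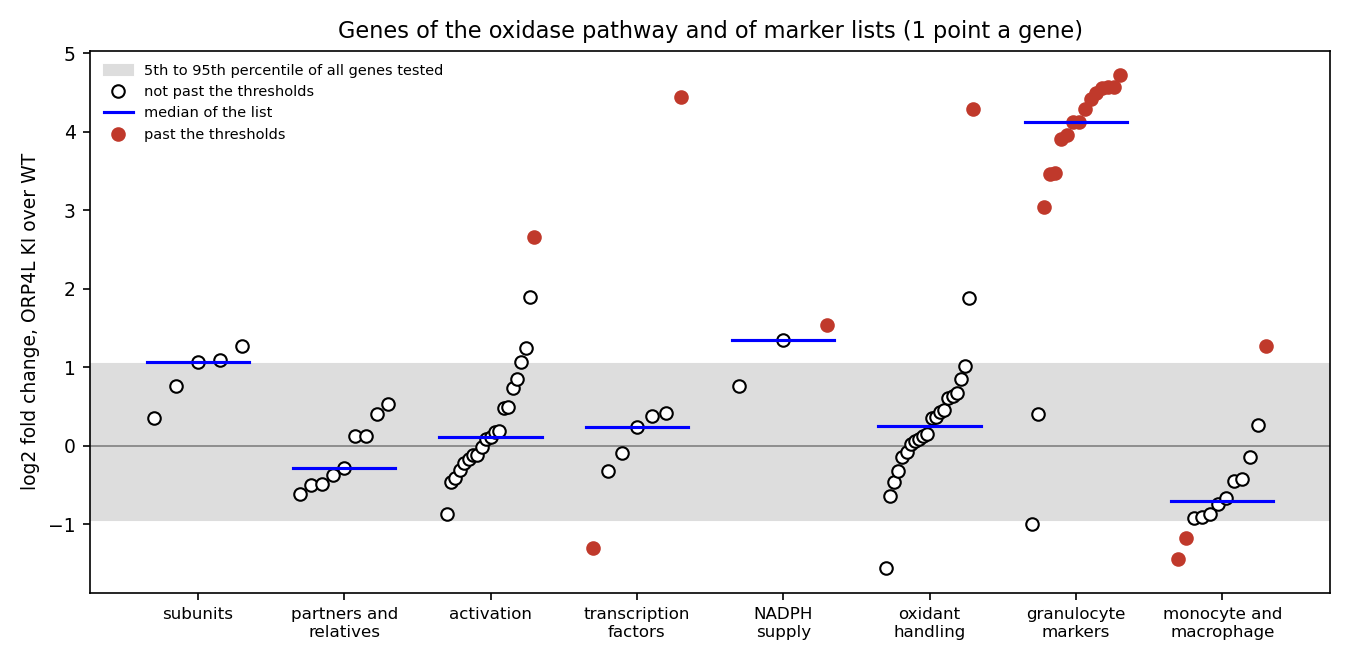
Log2FC of ORP4L KI over WT (y axis) for the genes of each list that passed the filter, 1 point a gene, red where past the unadjusted thresholds, with the median of the list in blue and the 5th to 95th percentile of all genes in grey. The subunits lie between 0.35 and 1.27 with none past the thresholds, the NADPH supply has a median of 1.35, and 14 of 16 granulocyte markers are past the thresholds.

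Genes whose CPM followed each subunit most closely over the 7 libraries were sought among 11742 genes by Pearson's r on the log2 scale. These are descriptions over 7 libraries that share ORP4L KI replicate 1 as their extreme, and between 149 and 406 genes had r above 0.95 with a given member. Closest to Cybb were Dram1 (r = 0.995), Me2 (0.991) and Abcd2 (0.99). Closest to Cyba were Mfsd5 (0.998), Pqlc1 (0.997) and Znrd1 (0.996), and to Ncf1 Slc31a2 (0.998), Pgd (0.997) and Dhrs7 (0.996). Closest to Ncf4 were Cd63 (0.997), Nxt1 (0.997) and Atxn10 (0.996), and to Rac2 Ube2s (0.999), Bud31 (0.994) and Rnf10 (0.993). No member was among the 3 closest genes of another. Among the members themselves, Ncf1 and Ncf4 were the most alike pair (r = 0.986) and Cybb and Rac2 the least (r = 0.802).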

How the data were processed

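RNA from T-cells of 4 ORP4L KI and 3 WT mice was sequenced by the authors, who trimmed adapters, discarded reads shorter than 17 nt, mapped the rest to a mouse mRNA reference with FANSe3 and merged the splice variants of each gene. The authors deposited the read count of each gene, not normalized, and its RPKM per length of the longest transcript. The version of the reference is not given in the sources used here, and the labels name mm10. Counts were tested in R 4.3.3 with edgeR 4.0.16: filterByExpr (about 10 counts in enough libraries, 15 in all) left 13462 genes, which were scaled by TMM and fitted without covariates with the quasi-likelihood test. The standard error is the log2 fold change divided by the root of the F statistic. A gene was called, and is said to have risen or fallen, at an unadjusted p under 0.01 with a log2 fold change above 1 in size; a Benjamini-Hochberg adjusted p under 0.05 is given separately. For single genes an exact permutation test of log2(CPM + 1), two-sided, ran over all 35 splits. Ratios had 1 count added to each gene.

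Groups and replicate numbers come from the sample titles. No pair of libraries agreed within sampling noise. Depth, the total count, was 12918187 to 19665679 reads a library, and a gene at 0 is bounded at 3 counts, for counting error only. Alternatives were other scalings, filters and tests (among them DESeq2 1.42.0), the replicate block and each replicate left out. The Xist class (above or below 100 CPM) was an alternative chosen after seeing the data. The fit was first tested on simulated data. The members and lists were chosen with earlier results of these data known. The lists were 69 genes of the pathway and 7 lists of cell type markers. Named were the members, Osbp2, Xist, Ddx3y, fixed genes of the lists (some are not reported here), up to 4 called genes of each pathway list, and the 3 genes most like each member. Genes outside this rule, Cxcr2, Csf3r, Mmp8, Ngp, Eef1a1, Ly6c2, Lyz2, Idh1, the genes at 0 counts, Nox1, Me1 and those of the other observations, were chosen after their values were seen. Python 3.11.15 with pandas 2.3.3 made the tables and Matplotlib 3.10.9 the plots.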

Additional observations from a re-analysis of the deposited data

Results flagged for a closer look

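Of 40 named genes examined in the 4 ORP4L KI libraries for a single distant value, 4 had one, in each case ORP4L KI replicate 1. Chance gives about 1 in 20 groups, or 2, but only where the groups are independent. These genes were not, since they share the same libraries, and Abcd2 and Dram1 were named because they follow Cybb. The 4 can therefore not be weighed against the 2. Rac1 had 424.2 CPM there against 316.2 to 333.5 CPM in the other 3 libraries, and S100a8 had 29058 CPM against 1048 to 5572. Abcd2 and Dram1, 2 of the genes closest to Cybb, had 25.5 CPM against 6.52 to 8.90 and 53.0 CPM against 9.20 to 16.4. Idh1 and Nox1, which fall outside the rule for named genes, were not among the 40 and were not examined for a distant value. Their highest ORP4L KI library was also replicate 1. The 5 oxidase subunit genes had no such value by this criterion, although ORP4L KI replicate 1 was the highest library in all 5. Cybb, for example, had 1216 CPM there against 297.4 to 506.4 CPM in the other ORP4L KI libraries. With only 4 libraries, a value not flagged is not thereby shown to be close to the rest.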

How the results depend on the processing

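The count of 0 subunit genes past the unadjusted thresholds was 1 (Ncf1 each time) by the Wald test of DESeq2, 1 by the exact and 1 by the likelihood ratio test of edgeR, was 0 to 3 when a replicate was left out, and was 0 under the other alternatives. At an adjusted p under 0.05 it was 0 in all 18. The direction of all 5 subunit genes held in every alternative, with log2 fold changes of 0.53 to 1.31 for Cybb, 0.13 to 1.04 for Cyba, 0.77 to 1.52 for Ncf1, 0.66 to 1.29 for Ncf4 and 0.19 to 0.44 for Rac2. Under total-count scaling the median over all genes shifted by -0.14, with 275 higher and 407 lower calls, against 320 and 310 with TMM.

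Among the pathway genes, 5 calls became 10 with the Wald test, 9 with the exact test and 9 with the likelihood ratio test, and 3 to 10 with single replicates left out. Over all genes, 630 calls became 328 (without WT replicate 2) to 805 (without ORP4L KI replicate 2) when a replicate was left out. The 3 genes at an adjusted p under 0.05 were 44 with upper-quartile scaling, 113 with total counts, 176 without a filter, 784, 682 and 706 with the Wald, exact and likelihood ratio tests, and 0 with at least 10 counts in every library (1549 at an unadjusted p under 0.05) and 0 with the Xist class (1544). They were 0 to 342 when a replicate was left out, the fits at 0 having at least 1260 genes at an unadjusted p under 0.05.

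With the replicate number as a block, over replicates 1 to 3, 48 genes had an adjusted p under 0.05 against 0 without the block (1421 at an unadjusted p under 0.05), and 0 subunit genes were called. The deviations of same-numbered libraries correlated at 0.15, -0.53 and -0.0018, so the numbers were not taken to pair the mice.

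Of 719 comparisons of 40 named genes, 666 kept direction and call, 32 were stronger, 14 weaker and 7 reversed. The reversals were Rac1 with total counts (-0.021) and, with single replicates left out, Cd79a (-0.35 to 0.18), Spi1 (-0.41 to 0.34) and Cd3e (-0.040 to 0.34). No ratio between genes changed sign. With a library left out, the exact permutation test has too few splits left for any ratio to be called different. Its p therefore says nothing there about how stable the ratios are. The cause of the reversals was not tested.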

Other observations

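Genes that handle the oxidants downstream of the oxidase were described as a list of 22, all of which passed the filter. Mpo, which turns hydrogen peroxide into hypochlorous acid in the granulocyte phagosome, was the 1 gene past the thresholds, as higher in ORP4L KI, and the median log2 fold change (log2FC) of the list was 0.25. Prdx5, a peroxidase of mitochondria and peroxisomes, had 184.6, 245.1 and 106.5 CPM in WT and 1537, 154.2, 344.7 and 613.0 CPM in ORP4L KI libraries (log2FC 1.89, SE 0.69, edgeR-adjusted p = 0.254), with the order of the ORP4L KI libraries seen in the oxidase subunits. Cat, which encodes catalase, had 96.8 to 108.6 CPM in WT and 54.1 to 79.6 CPM in ORP4L KI libraries, below WT in all 4, with a log2FC of -0.64 (SE 0.20, edgeR-adjusted p = 0.177), which is under the size asked for a call. In all, 11 of the 22 genes had the order of the ORP4L KI libraries that the 5 subunits had.

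Arhgdib, the GDP dissociation inhibitor of blood cells, which binds Rac2 in the cytosol, had 918.0, 914.0 and 695.3 CPM in WT and 3139, 896.8, 1263 and 1768 CPM in ORP4L KI libraries. Its log2FC was 1.07 (SE 0.41, edgeR-adjusted p = 0.281), with ORP4L KI replicate 2 within the WT range. Itgb2, the shared chain of the leukocyte integrins, was above WT in all 4 ORP4L KI libraries (674.9 to 827.1 against 512.6 to 558.3 CPM) with a log2FC of 0.50, and Vav2, an exchange factor of Rac, was below WT in all 4 (21.7 to 30.0 against 40.5 to 52.6 CPM) with a log2FC of -0.87 (edgeR-adjusted p = 0.0881). Of the other Rac exchange factors of the list, Tiam1 (log2FC 0.49) and Vav1 (0.17) were above WT in all 4 ORP4L KI libraries without being past the thresholds, Vav3 and Dock2 had log2FCs of 0.11 and 0.09, and Prex1 of -0.41.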
